A study of Homo sapiens with 9 samples.

Results

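The amino acid synthesis and transport genes described here are 34 genes, taken by their symbols from the 58735 genes of a count table. They comprise 22 enzymes of serine, glycine, one-carbon, asparagine, glutamate, proline, transsulfuration and branched-chain amino acid metabolism and 12 amino acid transporters of the plasma membrane. Of these, 32 passed the filter on low counts that left 15555 genes for testing, namely all 12 transporters and 20 of the enzymes. The cells were VCaP, an established line of prostate cancer cells obtained from ATCC and grown in DMEM with 10% fetal bovine serum and 2 nM DHT, the androgen dihydrotestosterone, in all groups. They were transfected with a control siRNA (siCtrl, genotype WT) or with siCDO1A or siCDO1C, which both target CDO1, the cysteine dioxygenase that opens the breakdown of cysteine towards taurine (genotype CDO1 knockdown). Each group had 3 libraries, labelled as biological replicates, and the 9 libraries came from a single cell line. The control siRNA is not named, and neither the siRNA sequences nor the time from transfection to RNA extraction of these libraries is given in the sources used here.

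Cells obtain amino acids by import and by synthesis. Serine is made from a glycolytic intermediate by PHGDH, PSAT1 and PSPH, and its conversion to glycine by the SHMT enzymes feeds carbon into the folate cycle. Transporters of the SLC families exchange or co-transport neutral and cationic amino acids, and SLC3A2 is the heavy chain that brings SLC7A5, SLC7A6 and SLC7A8 to the membrane. When amino acids run short, the kinase GCN2 (EIF2AK4) phosphorylates eIF2 alpha, which favours translation of the transcription factor ATF4, and ATF4 binds composite elements in many of these genes.

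Such elements are known from promoters of amino acid genes, and the core of the C/EBP-ATF composite element, TGATGNAA, was sought on both strands of RefSeq promoter windows (GRCh38.p14) that reach from 250 bases before to 50 bases after a start. It was present in 3.62% of 35116 windows and for 4.46% of 27305 genes. Of the 34 genes, 27 had a window, and 9 of these (33.3%) held the core in at least 1 window. The other 18 with a window did not, and PSPH, SHMT2, GPT2, PYCR1, BCAT2, SLC7A2 and ALDH1L2 had no window. The 27 genes had 51 windows, of which 11 (21.6%) held the core, the stretch of MTHFD1L being in more than 1 of them. The stretches below are written on the gene's strand and the capitals mark the core. It reads on the opposite strand in GOT1, SLC1A4 and SLC3A2.
ASNS: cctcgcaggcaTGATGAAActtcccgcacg
SLC7A1: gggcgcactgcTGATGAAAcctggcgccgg
SLC38A1: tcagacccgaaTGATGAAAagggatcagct
SLC1A5: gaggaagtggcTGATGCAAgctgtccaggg
MTHFD1L: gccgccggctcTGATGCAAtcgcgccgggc
BCAT1: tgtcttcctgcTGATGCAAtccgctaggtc
SLC1A4: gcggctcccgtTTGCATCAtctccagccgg
GOT1: aattgcattggTTGCATCAttctcggcagc
SLC3A2: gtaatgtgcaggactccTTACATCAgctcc
The stretches lie at chr7:97872458-97872487 (ASNS, minus strand), chr13:29595663-29595692 (SLC7A1, minus), chr12:46266502-46266531 (SLC38A1, minus), chr19:46784893-46784922 (SLC1A5, minus) and chr6:150866346-150866375 (MTHFD1L, plus). The others lie at chr12:24949131-24949160 (BCAT1, minus), chr2:64989381-64989410 (SLC1A4, plus), chr10:99430804-99430833 (GOT1, minus) and chr11:62881719-62881748 (SLC3A2, plus). A match of these letters is a description of the window and no evidence of binding.

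Total counts ranged from 12061295 to 16073698 per library, so that 3 counts correspond to between 0.187 and 0.249 CPM (counts scaled to library size with TMM factors). CDO1 itself was at 13.64 to 14.16 CPM in siCtrl, 2.049 to 3.276 with siCDO1A (82.1% lower by the means) and 1.094 to 2.81 with siCDO1C (87.9% lower), so that all 6 libraries of the siRNAs were under siCtrl while the siRNAs overlapped each other. The 9 luminal prostate and VCaP markers used, KLK2 and ERG among them, all passed the filter. They summed to 5016 to 5272 CPM in siCtrl, 5556 to 6004 with siCDO1A and 5107 to 5507 with siCDO1C, which overlapped siCtrl. KLK2 alone made up 2872 to 3963 CPM of these sums over all libraries. The neuroendocrine markers CHGA, SYP and INSM1 summed to 147.2 to 160, 164 to 185.4 and 162.5 to 179.9 CPM in the same order. The part of either shift in the results below was not tested. The basal markers KRT5 and TP63 and the immune markers PTPRC, CD3E and CD68 stayed at or under 0.4118 CPM as sums. Of 5 fibroblast markers 2 passed the filter, with COL1A2 at 0 in all libraries, and of 3 endothelial markers 1 did, with CDH5 at 0, and the highest sums were 22.96 and 2.667 CPM. siCDO1C replicate 2 stood apart from its group, with a chi-square per gene of 13.2 and 13.1 against its group mates, whereas all other pairs of replicates were between 2.48 and 6.18.

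In control cells the 34 genes differed widely in level. Levels were divided by the length listed for each gene with the counts, and their order depends on it. In siCtrl, PHGDH was above PSAT1 in CPM (181.4 and 121.3) and below it per kb (19.68 and 55.43). Per kilobase of gene length, PYCR1, the last enzyme of proline synthesis, was highest in siCtrl at 93.07 ± 5.968 CPM per kb (SD, n = 3). It was followed by PSAT1 at 55.43 ± 1.536 and by SLC1A5, the main glutamine exchanger, at 53.25 ± 1.198. PSAT1 and SLC1A5 did not differ beyond their spread. ASNS, the asparagine synthetase, was lowest among the tested genes at 0.4536 ± 0.08477 CPM per kb, near SLC7A5 at 0.4712 and MTHFD2L at 0.4674, which did not differ from it beyond the spread. Of the light chains of SLC3A2 (17.03 CPM per kb) among the 34 genes, SLC7A8 was at 3.56, SLC7A6 at 2.811 and SLC7A5 at 0.4712. SLC7A11, a light chain outside the 34, was at 4.313 CPM per kb. BCAT1, the cytosolic branched-chain aminotransferase, had 0 to 3 counts per library, and its mitochondrial counterpart BCAT2 was at 14.81 CPM per kb. ALDH1L2, the mitochondrial formyl-folate dehydrogenase, had 7, 7 and 10 counts in siCtrl, 10, 12 and 6 with siCDO1A and 3, 3 and 2 with siCDO1C, and like BCAT1 it was not tested.

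**Figure D1:**
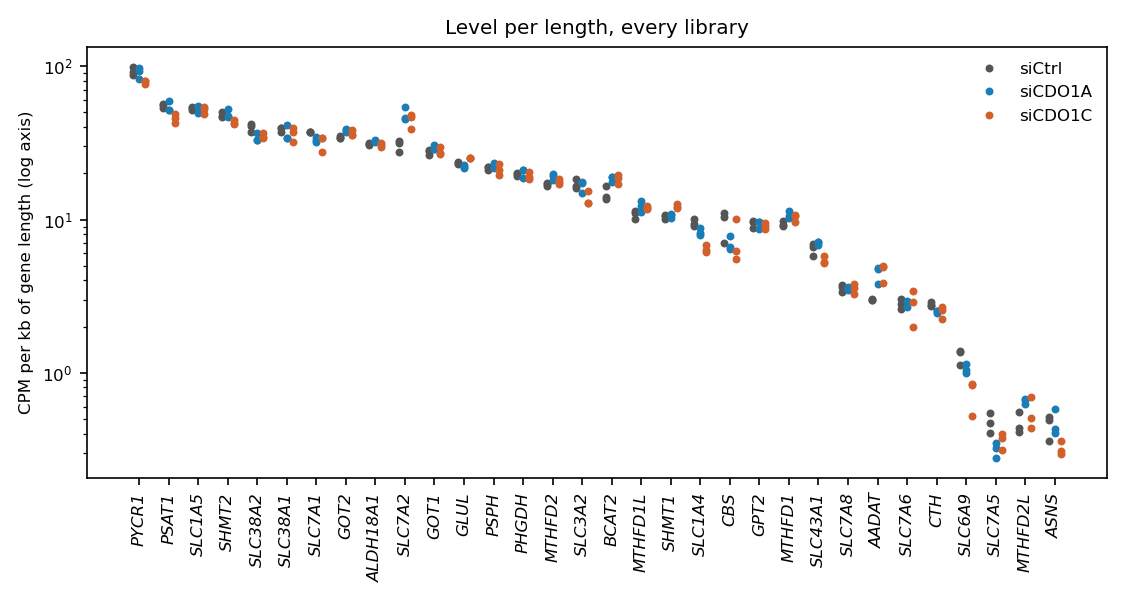
Level of each of the 32 tested genes in CPM per kb of gene length (log axis), with 1 point for each of the 9 libraries, ordered by the siCtrl mean. PYCR1 is at the top with a siCtrl mean of 93.07 CPM per kb and ASNS at the bottom with 0.4536. The points of SLC7A2 and AADAT with either siRNA lie above those of siCtrl.

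Each siRNA was compared with siCtrl to ask which of the genes change when CDO1 is silenced, and the siRNAs were compared with each other to ask whether their effects differ. With siCDO1A, 4 genes rose (AADAT, BCAT2, MTHFD1 and SLC7A2) and 2 fell (SLC38A2 and SLC7A1) at an adjusted p of at most 0.05 (edgeR quasi-likelihood test, adjusted over all 15555 genes). These are 12.5% and 6.25% of the 32, beside 7.37% of all tested genes that rose and 7.48% that fell. With siCDO1C, 2 rose (AADAT and SLC7A2) and 3 fell (PSAT1, SLC1A4 and SLC6A9), which is 6.25% and 9.38%, beside 2.27% and 2.5% of all tested genes. AADAT and SLC7A2 rose with both, as 1.9% of all tested genes did, and none of the 32 fell with both, as 1.72% did. Between siCDO1C and siCDO1A, none of the 32 was past the threshold in either direction, whereas 0.244% of all tested genes were higher and 0.199% lower with siCDO1C. DESeq2 also called 0 of the 32, beside 104 of all tested genes. An unadjusted p under 0.05 was found for 9 of the 32, beside 1190 of all 15555. The siRNAs share the siCtrl libraries, so that their comparisons with siCtrl are not independent.

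Most of the changes were small. The median log2 fold change of the 32 genes was 0.02 with siCDO1A (0.01 over all tested genes) and -0.04 with siCDO1C (-0.00023 over all). Regardless of sign, the median size of the log2 fold change came to 0.10 with siCDO1A, beside 0.15 over all genes, and 0.18 with siCDO1C, beside 0.14. The 12 transporters had a median of -0.06 with siCDO1A and -0.21 with siCDO1C, where 11 had a value under 0 and SLC7A2 one above it. Over all 15555 tested genes, 7785 were under 0 with siCDO1C. The 14 tested amino acid transporters outside the 34 genes had medians of -0.04 and 0.13. With siCDO1C 5 of these were under 0 and 9 above it. For the 20 tested enzymes among the 32 genes the medians were 0.05 and -0.0078. In siCDO1A against siCtrl, 9 instead of 6 passed the threshold without siCDO1A replicate 3, 3 without siCDO1A replicate 2 and 2 without siCtrl replicate 2. Over all tested genes the calls in these settings were 3454, 1336 and 1292, beside 2309 with all libraries. In siCDO1C against siCtrl, 2 of the 32 passed it without siCtrl replicate 1, 2 or 3 (279, 272 and 263 of all genes). Without siCDO1C replicate 1 or 3, 3 passed it (368 and 546 of all genes, beside 742 with all libraries). Without siCDO1C replicate 2, 12 instead of 5 of the 32 passed the threshold against siCtrl, as did 2068 instead of 742 of all genes. These 12 were the 5 above together with SHMT1, MTHFD1 and BCAT2, which were higher, and SHMT2, PYCR1, SLC38A2 and SLC3A2, which were lower.

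**Figure D2:**
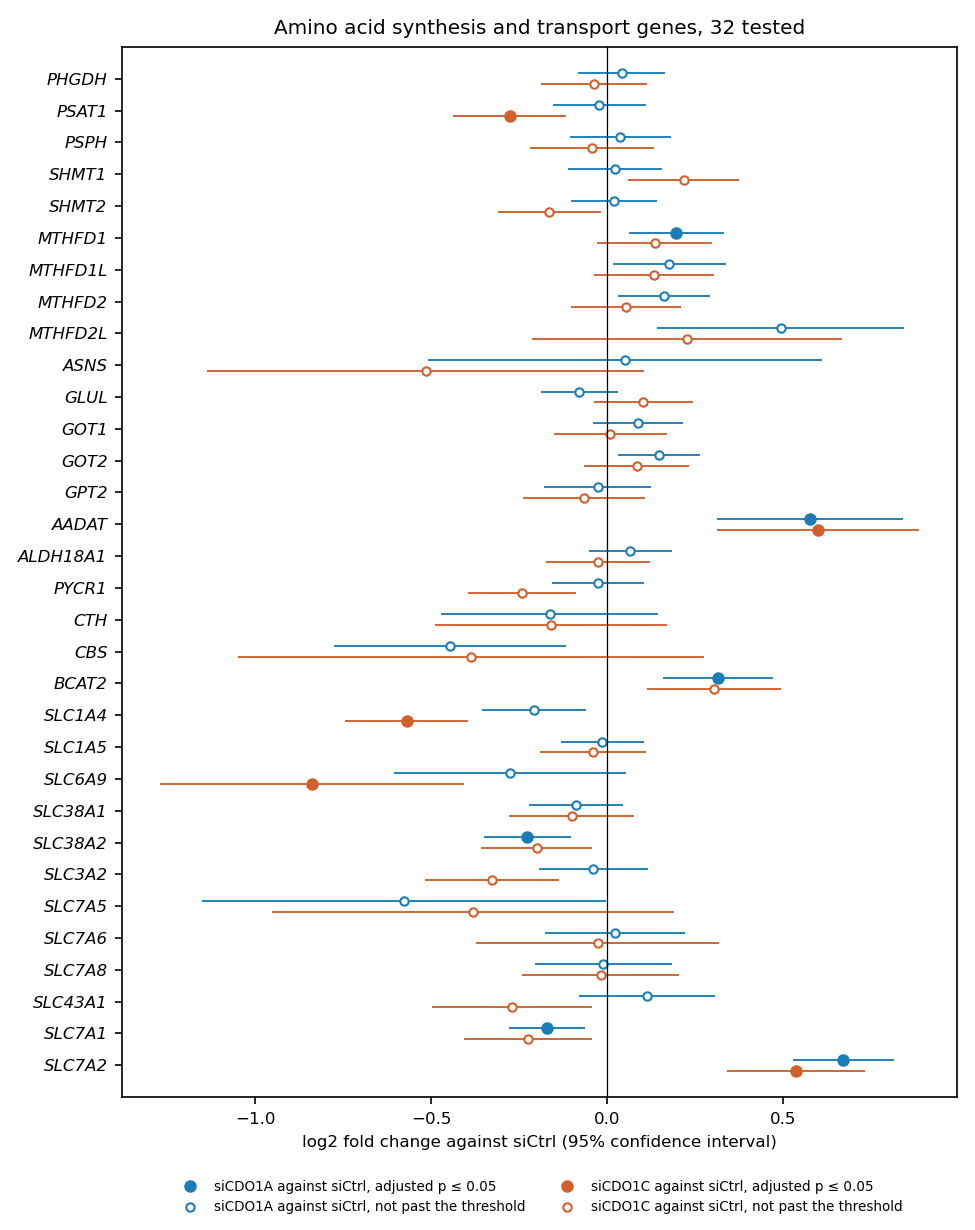
Log2 fold change against siCtrl of the 32 tested genes, with the 95% confidence interval of each gene, for siCDO1A (blue) and siCDO1C (orange), 3 libraries per group. Filled points have an adjusted p of at most 0.05, which are 6 genes with siCDO1A and 5 with siCDO1C, and SLC7A2 and AADAT are filled for both on the right of 0.

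SLC7A2, a carrier of the cationic amino acids arginine, lysine and ornithine, gave the smallest adjusted p among the 34 genes. It lies on chr 8 from 17497088 to 17570573 (GRCh38). Its level was 257.7, 250 and 217.4 CPM in siCtrl replicates 1 to 3, 360.3, 365.7 and 428.2 with siCDO1A and 371.5, 307.5 and 378.9 with siCDO1C. All 6 libraries with an siRNA against CDO1 lay above the 3 siCtrl libraries. The rise was 1.59-fold with siCDO1A (log2 fold change 0.67, SE 0.0691, adjusted p = 9.92e-07) and 1.45-fold with siCDO1C (0.54, SE 0.092, adjusted p = 0.00318). It was past the threshold under each of the 12 alternatives run for either siRNA. The siRNAs differed by -0.13 (95% interval -0.33 to 0.07, adjusted p = 0.884).

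SLC7A1, the widely expressed carrier of the same family and substrates (chr 13, 29509410 to 29595688), had values of the opposite sign. It was at 288.1, 285.1 and 285.2 CPM in siCtrl, 245.1, 252.9 and 265.0 with siCDO1A and 263.0, 211.5 and 263.7 with siCDO1C. The siCtrl libraries were close together and all above those of both siRNAs. It fell with siCDO1A (log2 fold change -0.17, SE 0.0518, adjusted p = 0.0308), and the value was -0.22 with siCDO1C (SE 0.0858, adjusted p = 0.165). The call with siCDO1A was lost with the replicate block, a term for the batch number of the labels (adjusted p = 0.144). The same held with no filter on low counts (0.0581), in 1 fit of all 9 libraries (0.201), and when siCtrl replicate 1, 2 or 3 (0.121, 0.101 and 0.0573) or siCDO1A replicate 1 or 2 (0.151 and 0.104) was left out.

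Among the carriers of small neutral amino acids, SLC1A4, an exchanger of alanine, serine, cysteine and threonine (chr 2, 64988477 to 65023865), showed the clearest fall. Its levels were 63.4, 64.7 and 69.69 CPM in siCtrl, 60.68, 56.36 and 54.63 with siCDO1A and 42.82, 44.2 and 47.11 with siCDO1C. The 3 groups did not overlap, with siCDO1C lowest and siCDO1A between. With siCDO1C it was 1.48-fold lower (log2 fold change -0.57, SE 0.0819, adjusted p = 0.000925), past the threshold in all 12 alternatives. With siCDO1A the value was -0.21 (SE 0.0713, adjusted p = 0.055). The difference between the siRNAs was -0.36 (95% interval -0.55 to -0.17, adjusted p = 0.125), and it reached an adjusted p of 0.0308 without siCDO1C replicate 2 and 0.0399 in 1 fit of all 9 libraries. SLC1A5, its relative that takes up glutamine and also holds the core element, was at 177.4 ± 3.993, 176.0 ± 10.24 and 173.5 ± 9.148 CPM (SD, n = 3) in siCtrl, siCDO1A and siCDO1C. Its log2 fold changes were -0.01 (95% interval -0.13 to 0.11) and -0.04 (-0.19 to 0.11).

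SLC6A9, the glycine transporter GLYT1 (chr 1, 43991500 to 44031467), was expressed at a low level. It was at 5.756, 6.995 and 7.13 CPM in siCtrl, 5.159, 5.397 and 5.872 with siCDO1A and 2.668, 4.253 and 4.365 with siCDO1C, where 39, 56 and 53 reads were counted. The siCDO1C libraries were all under the others, and siCDO1A overlapped siCtrl. With siCDO1C it was 1.79-fold lower (log2 fold change -0.84, SE 0.203, adjusted p = 0.0287), with siCDO1A the value was -0.28 (adjusted p = 0.272), and the siRNAs differed by -0.56 (95% interval -1 to -0.12, adjusted p = 0.47). The call was lost without siCtrl replicates 1, 2 or 3 (adjusted p = 0.0596, 0.129 and 0.146) or siCDO1C replicate 1 (0.133).

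The sodium-coupled carriers SLC38A1 and SLC38A2 import glutamine and other small neutral amino acids. SLC38A2 (chr 12, 46358189 to 46372867) was at 279.1, 269.2 and 246.5 CPM in siCtrl, 219.2, 218.7 and 241.2 with siCDO1A and 225.0, 227.1 and 243.3 with siCDO1C. The siCtrl libraries were above all others, although siCtrl replicate 3 was close to replicate 3 of both siRNAs. It fell with siCDO1A (log2 fold change -0.23, SE 0.0592, adjusted p = 0.0129), and the value with siCDO1C was -0.20 (SE 0.0739, adjusted p = 0.151, or 0.0277 without siCDO1C replicate 2). The call with siCDO1A was lost with the replicate block (0.066), in 1 fit of all 9 libraries (0.0537) and without siCtrl replicates 1 or 2 (0.1 and 0.0719) or siCDO1A replicates 1 or 2 (0.0708 and 0.0805). SLC38A1 had log2 fold changes of -0.09 and -0.10, neither past the threshold, although without siCDO1A replicate 3 the former was (adjusted p = 0.00282).

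Of the carriers of large neutral amino acids, none passed the threshold with either siRNA. SLC3A2, the heavy chain, was at 85.49, 83.22 and 95.79 CPM in siCtrl, 90.09, 90.99 and 77.0 with siCDO1A and 66.28, 79.52 and 66.54 with siCDO1C. All siCDO1C libraries were under siCtrl, and replicate 2 was the highest of the 3. The log2 fold change with siCDO1C was -0.33 (SE 0.0895, adjusted p = 0.0504), just outside the threshold, and the gene was called by DESeq2 (0.0378), with no filter (0.0116), with at least 10 counts in every library (0.0499), in 1 fit of all 9 libraries (0.0383) and without siCDO1C replicate 2 (0.000104). Among its light chains in this set, SLC7A6 and SLC7A8 had values between -0.03 and 0.02 with both siRNAs. Its light chain SLC7A11, outside the set, fell with both (-0.72 and -1.53) and is described below. SLC7A5, the leucine carrier LAT1, had only 16 to 36 reads per library and values of -0.58 and -0.38 on the log2 scale, with adjusted p-values of 0.176 and 0.499. SLC43A1, a facilitative carrier of branched-chain amino acids first described in prostate cancer, had 0.11 with siCDO1A and -0.27 with siCDO1C, and the difference between the siRNAs was -0.38 (95% interval -0.60 to -0.16, adjusted p = 0.187).

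**Figure D3:**
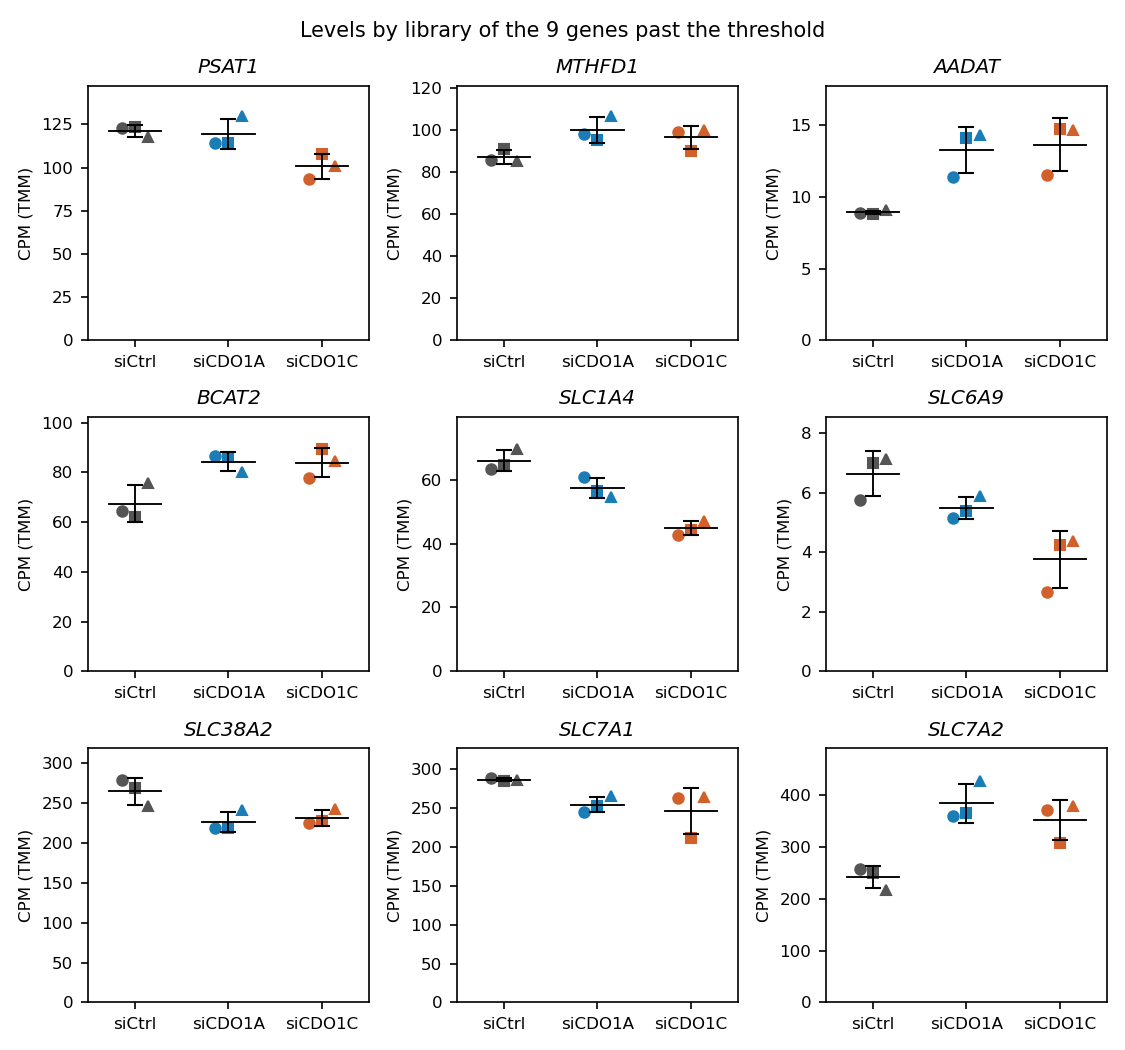
CPM in every library of the 9 genes past the threshold in any comparison, by group, with replicates 1, 2 and 3 as circle, square and triangle, the line at the group mean and bars of 1 SD (n = 3). SLC7A2 and AADAT are above siCtrl in all 6 libraries with an siRNA against CDO1, and SLC1A4 falls from 65.93 in siCtrl to 57.22 and 44.71 CPM on average.

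Turning to the enzymes, AADAT, a mitochondrial aminotransferase that acts on 2-aminoadipate and kynurenine with glutamate as product (chr 4, 170060222 to 170091699), rose with both siRNAs. It was at 8.868, 8.823 and 9.052 CPM in siCtrl, 11.38, 14.07 and 14.32 with siCDO1A and 11.49, 14.73 and 14.66 with siCDO1C. The siCtrl libraries were the lowest 3, and replicate 1 was the lowest with each siRNA. The rise was 1.49-fold with siCDO1A (log2 fold change 0.58, SE 0.127, adjusted p = 0.00375) and 1.52-fold with siCDO1C (0.60, SE 0.135, adjusted p = 0.0191). The latter was lost without siCtrl replicates 1, 2 or 3 (0.0854, 0.0973 and 0.0917) or siCDO1C replicate 3 (0.0597). The difference between the siRNAs was 0.03 (95% interval -0.27 to 0.32).

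BCAT2, which removes the amino group of leucine, isoleucine and valine in mitochondria (chr 19, 48795062 to 48811029), had close values with both siRNAs. It was at 64.33, 62.24 and 75.77 CPM in siCtrl, 86.65, 86.14 and 79.97 with siCDO1A and 77.63, 89.4 and 84.58 with siCDO1C. All 6 libraries were above siCtrl, with a narrow gap to siCtrl replicate 3. The log2 fold change was 0.32 with siCDO1A (SE 0.0753, adjusted p = 0.00674) and 0.30 with siCDO1C (SE 0.0898, adjusted p = 0.0669), and the siRNAs differed by -0.01 (95% interval -0.19 to 0.17). Without siCtrl replicate 2 the call with siCDO1A was lost (0.0644), and without siCDO1C replicate 2 the gene was called with siCDO1C (0.0231), as it was with no filter (0.0226) and in 1 fit of all 9 libraries (0.0314).

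In the serine pathway, PSAT1, the aminotransferase of the second step (chr 9, 78297143 to 78330093), fell with siCDO1C. Its levels were 122.8, 123.6 and 117.4 CPM in siCtrl, 114.2, 114.4 and 129.6 with siCDO1A and 93.43, 107.6 and 100.9 with siCDO1C. The siCDO1C libraries were all under the others, and siCDO1A overlapped siCtrl. The log2 fold change with siCDO1C was -0.28 (SE 0.0751, adjusted p = 0.0481), with siCDO1A it was -0.02 (adjusted p = 0.864), and the siRNAs differed by -0.25 (95% interval -0.43 to -0.07, adjusted p = 0.376, or 0.0308 without siCDO1C replicate 2). The call against siCtrl was close to the threshold and was lost with the replicate block (0.0832) and with RLE size factors (0.0507). So it was when siCtrl replicate 1, 2 or 3 (0.226, 0.218 and 0.118) or siCDO1C replicate 1 or 3 (0.216 and 0.1) was left out. PHGDH, which opens the pathway, and PSPH, which closes it, both had log2 fold changes of 0.04 with siCDO1A and -0.04 with siCDO1C. PSPH shares sequence with the pseudogene PSPHP1, and their summed counts had values of 0.03 and -0.05. The serine hydroxymethyltransferases had values of opposite sign with siCDO1C, 0.22 for the cytosolic SHMT1 (adjusted p = 0.111) and -0.16 for the mitochondrial SHMT2 (adjusted p = 0.215), and without siCDO1C replicate 2 both were past the threshold (0.0153 and 0.0161).

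The folate enzymes had small positive values. MTHFD1, the trifunctional cytosolic enzyme (chr 14, 64388031 to 64463457), was at 85.96, 91.33 and 85.19 CPM in siCtrl, 98.27, 95.43 and 107.0 with siCDO1A and 99.25, 90.23 and 100.4 with siCDO1C. The siCDO1A libraries were above siCtrl, and siCDO1C replicate 2 overlapped it. The log2 fold change was 0.20 with siCDO1A (SE 0.0647, adjusted p = 0.0435) and 0.14 with siCDO1C (adjusted p = 0.372, or 0.0432 without siCDO1C replicate 2). The call with siCDO1A was lost with the replicate block (0.152), with DESeq2 (0.0544), in 1 fit of all 9 libraries (0.111) and when any 1 of its 6 libraries was left out (0.0559 to 0.154). The mitochondrial MTHFD1L, MTHFD2 and MTHFD2L had 0.18, 0.16 and 0.49 with siCDO1A (adjusted p = 0.134, 0.0902 and 0.0527) and 0.13, 0.06 and 0.23 with siCDO1C. Without siCDO1A replicate 3, MTHFD1L and MTHFD2L were past the threshold with siCDO1A (0.0157 and 0.043), the latter also without siCtrl replicate 1 (0.0412). All 4 tested folate enzymes thus had positive values with both siRNAs, 1 of them past the threshold with siCDO1A and none with siCDO1C.

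The other enzymes of glutamate, asparagine and proline synthesis were not past the threshold. GLUL, the glutamine synthetase, had -0.08 and 0.10 with siCDO1A and siCDO1C. GOT1 and GOT2, the aspartate aminotransferases, had 0.09 and 0.15 with siCDO1A and 0.01 and 0.09 with siCDO1C, and GOT2 was past the threshold with siCDO1A without siCDO1A replicate 3 (adjusted p = 0.0483). GPT2, the mitochondrial alanine aminotransferase, had -0.03 and -0.06. ASNS had only 16 to 39 reads per library, and its values of 0.05 (95% interval -0.51 to 0.61) and -0.51 (-1.14 to 0.11) have wide intervals. ALDH18A1, which starts proline synthesis, had 0.07 and -0.03, and PYCR1, which ends it, had -0.03 with siCDO1A and -0.24 with siCDO1C (adjusted p = 0.0695, or 0.00252 without siCDO1C replicate 2).

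The transsulfuration enzymes CBS and CTH make cysteine, the substrate of CDO1, from homocysteine by way of cystathionine. CTH had a log2 fold change of -0.16 with each siRNA (adjusted p = 0.522 and 0.647). CBS was at 74.6, 70.35 and 47.8 CPM in siCtrl, 52.74, 44.81 and 43.68 with siCDO1A and 37.55, 68.43 and 42.08 with siCDO1C. Its coefficient of variation was the highest of the 32 genes in siCtrl (22.4%) and with siCDO1C (33.8%), whereas with siCDO1A it was 10.5% and ASNS was the most variable at 19.9%. The values were -0.45 with siCDO1A (SE 0.149, adjusted p = 0.0743) and -0.39 with siCDO1C (adjusted p = 0.535), and with the replicate block the former was past the threshold (0.00793), as it was when low counts were not filtered (5.28e-06) and without siCtrl replicate 3 (3.62e-05) or siCDO1A replicate 1 (0.0405). CBS has a near-identical annotated copy, CBSL, between which reads cannot be assigned with certainty. CBSL, looked at after the values of CBS were seen, was at 29.17, 33.15 and 32.92 CPM in siCtrl, 41.28, 53.97 and 41.37 with siCDO1A and 78.86, 25.75 and 32.69 with siCDO1C. siCDO1C replicate 1 was the lowest library in CBS and the highest in CBSL, and CBSL took between 27.3% and 67.7% of the sum. With siCDO1A, CBSL alone had a log2 fold change of 0.52 (adjusted p = 0.00122), the opposite sign to CBS. The sum of both was 103.8, 103.5 and 80.73 CPM in siCtrl, 94.02, 98.78 and 85.05 with siCDO1A and 116.4, 94.18 and 74.78 with siCDO1C. These sums overlapped between all groups, and their log2 fold changes were -0.05 (SE 0.0838, adjusted p = 0.756) and -0.02 (SE 0.156, adjusted p = 0.97).

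**Figure D4:**
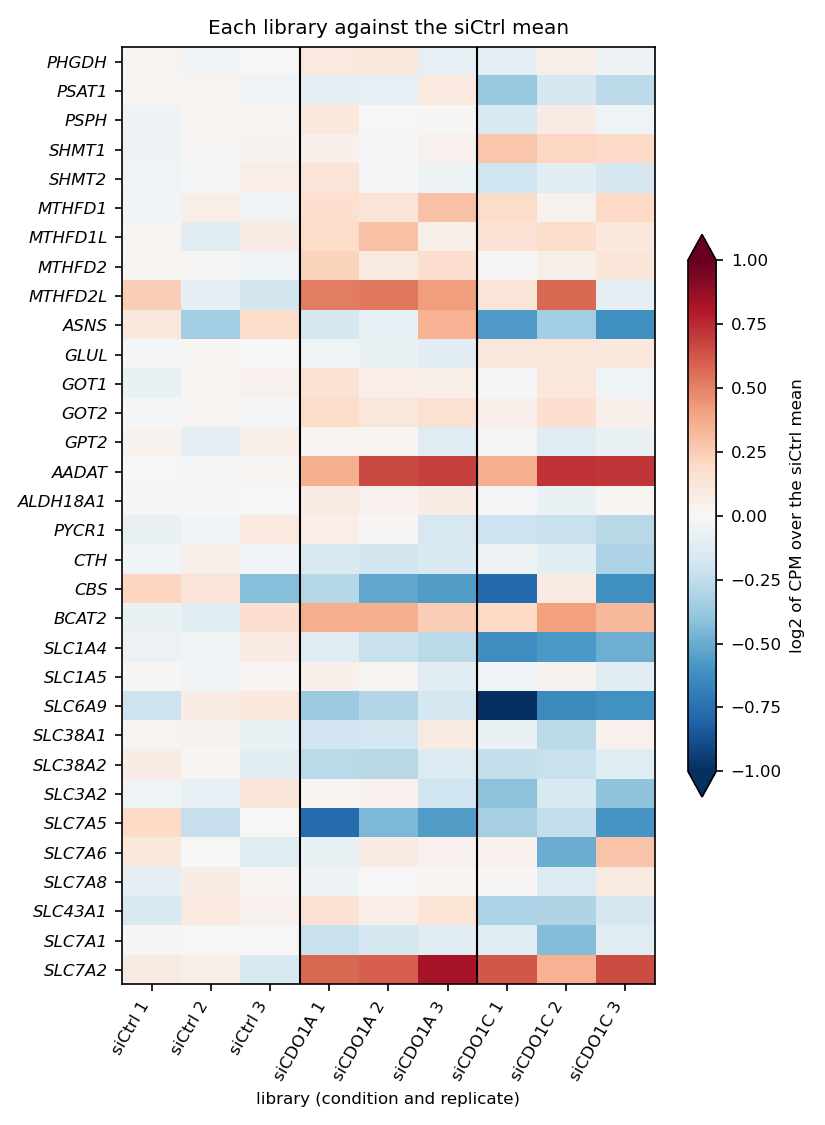
Log2 of CPM over the siCtrl mean in each of the 9 libraries for the 32 tested genes, with the colour scale ending at -1 and 1 (values beyond it take the end colour). SLC7A2 and AADAT are red in all libraries with an siRNA against CDO1. SLC1A4 and SLC6A9 are each darker with siCDO1C than in the other groups. CBS varies within siCtrl and siCDO1C.

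Of the genes with a core element in the promoter window, 8 were tested. SLC7A1 fell with siCDO1A and SLC1A4 with siCDO1C, and ASNS, SLC38A1, SLC1A5, MTHFD1L, GOT1 and SLC3A2 were not past the threshold with either siRNA. Over all tested genes 7.48% fell with siCDO1A and 2.5% with siCDO1C. Of 12 alternatives each, the call of SLC7A1 held in 4 and that of SLC1A4 in 12. A part of the element in these values was not tested. The levels of these 8 in siCtrl spanned the range from ASNS at 0.4536 to SLC1A5 at 53.25 CPM per kb.

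The amino acid response genes, a list of 25 regulators and targets of the ATF4 branch with 24 tested, contained more genes that fell. With siCDO1A 7 fell and 2 rose (29.2% and 8.33%, beside 7.48% and 7.37% of all tested genes), with a median log2 fold change of -0.07. With siCDO1C 8 fell and 0 rose (33.3%, beside 2.5%), with a median of -0.24. Of the 24, 14 had an unadjusted p under 0.05 with siCDO1C, beside 2890 of all 15555 genes. With the replicate block the counts were 3 fallen and 0 risen with siCDO1A and 7 fallen with siCDO1C. Calls over all genes were 1358 and 634 with the block, beside 2309 and 742 without it. When 1 library was left out, the number of response genes called ranged from 3 to 9 with siCDO1A. It was lowest without siCtrl replicate 2 or siCDO1A replicates 1 or 2 (3 each), and it was 4 without siCtrl replicate 3 and 5 without siCtrl replicate 1. With siCDO1C it was 1 without siCtrl replicate 3 and 2 without siCtrl replicates 1 or 2. It was 3 and 4 without siCDO1C replicates 1 and 3, and 13 without siCDO1C replicate 2. Calls over all genes also varied. They ranged from 1292 (without siCtrl replicate 2) to 3454 (without siCDO1A replicate 3) with siCDO1A. With siCDO1C they ranged from 263 (without siCtrl replicate 3) to 2068 (without siCDO1C replicate 2).

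ATF4, the transcription factor at the centre of this response, was at 378.6, 406.6 and 429.5 CPM in siCtrl, 363.3, 362.5 and 345.7 with siCDO1A and 288.8, 346.6 and 304.3 with siCDO1C. Its libraries with either siRNA were all under siCtrl. It fell with siCDO1A (log2 fold change -0.18, SE 0.0543, adjusted p = 0.0275) and with siCDO1C (-0.38, SE 0.0806, adjusted p = 0.0136), and the siRNAs differed by -0.19 (adjusted p = 0.598). The call with siCDO1A was lost with the replicate block (0.122) and without siCtrl replicates 2 or 3 (0.103 and 0.132) or siCDO1A replicates 1 or 2 (0.0657 and 0.0713). The call with siCDO1C was lost without siCtrl replicates 2 or 3 (0.0932 and 0.109) or siCDO1C replicate 1 (0.0997). ATF4 is mainly regulated in translation, which messenger RNA counts do not show.

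ATF3, a stress-induced factor of the same family, was at 3.889, 2.544 and 4.34 CPM in siCtrl, 2.375, 1.776 and 2.375 with siCDO1A and 2.189, 1.595 and 1.153 with siCDO1C. It fell with siCDO1A (log2 fold change -0.74, SE 0.245, adjusted p = 0.0462) and siCDO1C (-1.12, SE 0.287, adjusted p = 0.0377), at low counts. The former was lost with the replicate block (0.0662), without siCtrl replicates 1 or 3 (0.138 and 0.199) and without siCDO1A replicates 1 or 2 (0.0828 and 0.186). The latter was lost without siCtrl replicates 1 or 3 (0.144 and 0.193) or siCDO1C replicate 3 (0.103). EIF2AK3, the eIF2 alpha kinase PERK of the endoplasmic reticulum, was at 41.23, 44.27 and 41.48 CPM in siCtrl, 31.28, 34.16 and 36.82 with siCDO1A and 30.51, 32.96 and 33.93 with siCDO1C. It fell with siCDO1A (-0.31, SE 0.0827, adjusted p = 0.0148) and siCDO1C (-0.39, SE 0.0871, adjusted p = 0.0182). These were lost without siCtrl replicate 2 or siCDO1A replicates 1 or 2 (0.0844, 0.0859 and 0.0537), and without siCtrl replicates 1, 2 or 3 or siCDO1C replicate 1 (0.0813, 0.125, 0.0688 and 0.106).

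**Figure D5:**
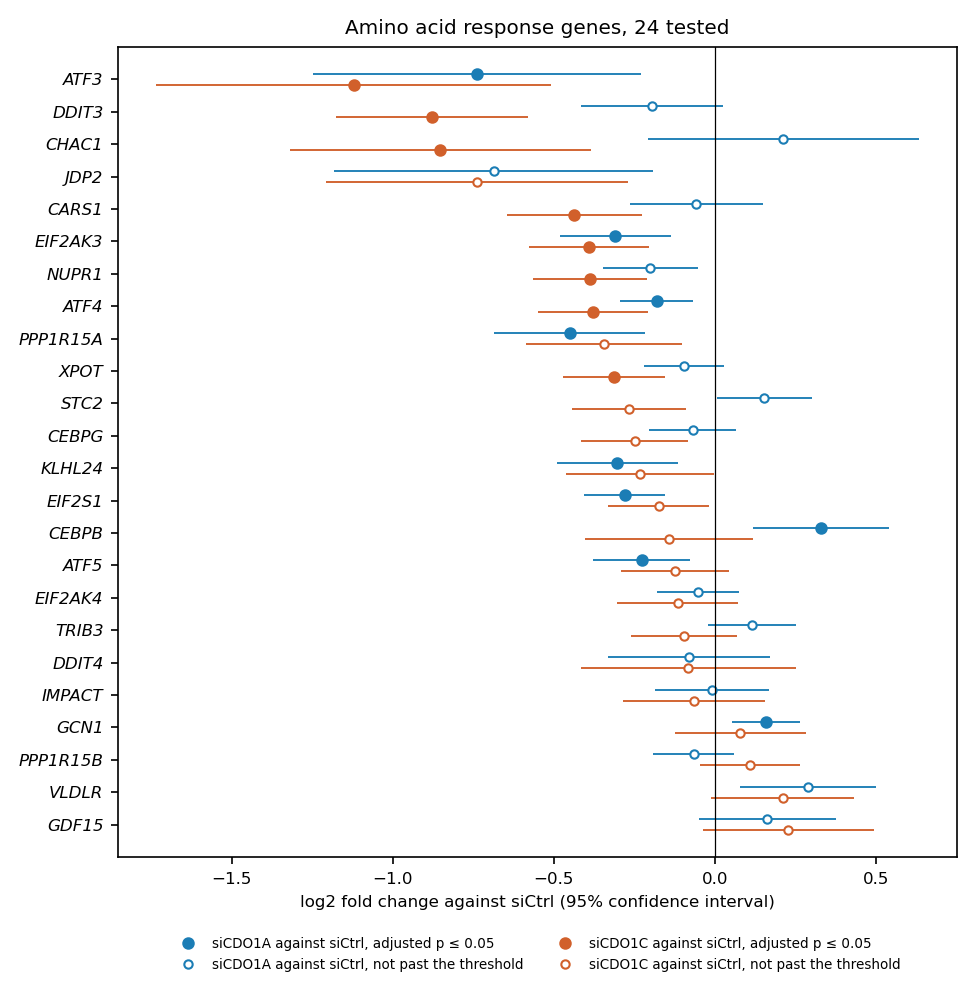
Log2 fold change against siCtrl of the 24 tested amino acid response genes with the 95% confidence interval, for siCDO1A (blue) and siCDO1C (orange), 3 libraries per group, with filled points for an adjusted p of at most 0.05. The filled orange points, 8 in number, are all left of 0, and ATF4, ATF3 and EIF2AK3 are filled for both.

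Of the other amino acid transporters, a list of 24 with 14 tested, 1 fell with siCDO1A (7.14%, beside 7.48% of all tested genes), and 1 rose and 1 fell with siCDO1C (7.14% each, beside 2.27% and 2.5%). The one that fell with both was SLC7A11, the cystine-glutamate exchanger, at 43.48, 42.92 and 38.38 CPM in siCtrl, 24.16, 23.29 and 27.98 with siCDO1A and 14.77, 12.3 and 16.31 with siCDO1C, with no overlap between the groups. Its log2 fold changes were -0.72 (SE 0.0909, adjusted p = 1.48e-05) and -1.53 (SE 0.113, adjusted p = 2.84e-06). By these values it fell by more than any of the 32 tested genes, whose lowest were -0.58 with siCDO1A and -0.84 with siCDO1C. The former was SLC7A5, at 16 to 36 reads, and its 95% interval of -1.15 to -0.003 held -0.72.

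Of 35 other enzymes of amino acid and folate metabolism, 29 were tested. With siCDO1A 4 rose and 0 fell (13.8% and 0%, beside 7.37% and 7.48% of all tested genes), and with siCDO1C 1 rose and 1 fell (3.45% each, beside 2.27% and 2.5%). With the replicate block 0 were called with siCDO1A, as without siCtrl replicate 1 or siCDO1A replicate 1. Over all genes these 3 settings gave 1358, 1348 and 1418 calls, beside 2309 in the reported fit. ARG2, the mitochondrial arginase that turns arginine into ornithine and urea, rose with both siRNAs. It was at 20.69, 23.61 and 20.96 CPM in siCtrl, 29.65, 25.28 and 27.51 with siCDO1A and 28.66, 31.06 and 29.4 with siCDO1C, all above siCtrl. The log2 fold changes were 0.34 (SE 0.0947, adjusted p = 0.0195, or 0.0613 with the replicate block) and 0.44 (SE 0.0972, adjusted p = 0.0161). They were lost without siCtrl replicates 1 or 3 with either siRNA (0.0912 and 0.0659, 0.1 and 0.0984) and without siCDO1A replicate 1 (0.108).

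Of 24 genes of amino acid sensing upstream of mTORC1, 23 were tested, of which 2 rose and 2 fell with siCDO1A (8.7% each, beside 7.37% and 7.48% of all tested genes) and 1 rose and 1 fell with siCDO1C (4.35% each, beside 2.27% and 2.5%). SESN1, a sestrin that restrains mTORC1, rose with both. It was at 61.45, 62.16 and 61.32 CPM in siCtrl, 74.44, 75.62 and 82.01 with siCDO1A and 71.68, 89.09 and 75.35 with siCDO1C, with all 6 libraries above siCtrl. The log2 fold changes were 0.33 (SE 0.0668, adjusted p = 0.00205) and 0.34 (SE 0.0875, adjusted p = 0.0361), and the latter was lost without siCtrl replicates 1, 2 or 3 (0.143, 0.147 and 0.144).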

How the data were processed

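RNA-seq of 9 VCaP libraries was used. As the labels and the methods of the study state, the authors had directional poly(A) libraries sequenced in paired-end mode by Illumina chemistry and obtained gene counts with featureCounts. The submitters' processing notes name CASAVA, HISAT2 2.0.5 and hg38. How the counting treated strand and reads that map to several genes is not given in the sources used here, which bears on CBS and on genes with antisense partners. The values deposited by the authors are whole counts without normalization and were used as deposited. The 3 per-sample columns that match no sample here were used in no step.

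Genes were kept with filterByExpr (minimum count 10, over 9 libraries), scaled with TMM and tested with the quasi-likelihood test of edgeR 4.0.16 (robust, R 4.3.3, limma 3.58.1) on the 6 libraries of each comparison, with Benjamini-Hochberg adjustment and a threshold of 0.05. The steps were tested on simulated data. Counts per list are given without a set test, since members were chosen by name. An exact permutation test of 3 libraries against 3 cannot give a p below 0.1. Alternatives were DESeq2 1.42.0, RLE factors, other filters, 1 fit of 9 libraries, an adjusted p of 0.01, a replicate block and leaving out each library. For the further lists, the block and the left-out libraries were added after seeing the data, as was the sum of CBS and CBSL.

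The labels' batch number equals the replicate number, so that numbers pair libraries by the labels. Deviations of same-numbered libraries from their group means correlated between -0.376 and 0.378 over 11332 genes, which are not independent. The labels call the libraries biological replicates, and the study states that its tests came from independent experiments unless specified otherwise, without naming these libraries, so that p-values measure the spread between them.

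The members and lists were chosen with earlier results of these data known. All 34 members are named, those past the threshold with every library. From each further list (other transporters, other enzymes, amino acid response, amino acid sensing) up to 4 genes past the threshold with both siRNAs are named. CBSL, PSPHP1, SFXN1, DDIT3 and STC2 were chosen after their values were seen. Promoter windows came from RefSeq (GRCh38.p14). Some marker genes set for the check of cell type are not reported here and are left out of the marker sums.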

Additional observations from a re-analysis of the deposited data

Results flagged for a closer look

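In the direct test of siCDO1C against siCDO1A none of the 32 tested members was past the threshold, and 4 genes of the further lists were (edgeR, 3 libraries each, adjusted over all genes). SLC7A11, the cystine-glutamate exchanger, was lower with siCDO1C by a log2 fold change of -0.80 (SE 0.126, adjusted p = 0.0043), and this was lost without siCDO1A replicate 3 (0.0877). SFXN1, the mitochondrial serine carrier, was at 79.77, 76.03 and 78.45 CPM with siCDO1A and 58.82, 60.46 and 59.62 with siCDO1C, a log2 fold change of -0.39 (SE 0.0826, adjusted p = 0.0399), beside 74.52, 75.04 and 74.96 in siCtrl. DDIT3, the transcription factor CHOP, was at 20.15, 21.25 and 16.96 CPM with siCDO1A and 10.26, 15.11 and 11.12 with siCDO1C, a log2 fold change of -0.68 (SE 0.148, adjusted p = 0.0496). STC2, a secreted glycoprotein of the amino acid response list, was at 55.69, 59.57 and 56.02 CPM with siCDO1A and 42.13, 41.24 and 45.38 with siCDO1C, a log2 fold change of -0.42 (SE 0.0902, adjusted p = 0.0496), with siCtrl between at 52.66, 49.44 and 51.9. The calls of SFXN1, DDIT3 and STC2 were lost without any 1 of siCDO1A replicates 1, 2 and 3 (0.361, 0.219 and 0.159 for SFXN1, 0.31, 0.396 and 0.12 for DDIT3 and 0.265, 0.41 and 0.159 for STC2). They were likewise lost without siCDO1C replicates 1 and 3 (0.245 and 0.173 for SFXN1, 0.328 and 0.165 for DDIT3 and 0.282 and 0.082 for STC2). With the replicate block all 4 were past the threshold.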

How the results depend on the processing

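The number of members past the threshold with siCDO1A (6) was 3 in 1 fit of all 9 libraries and 3 at an adjusted p of 0.01. When 1 library was left out, it ranged from 2 (without siCtrl replicate 2) to 9 (without siCDO1A replicate 3). Over all genes 2309 were called with siCDO1A, and 1369 in 1 fit of all 9 libraries. Without siCtrl replicate 2 this total was 1292, and without siCDO1A replicate 3 it was 3454. With siCDO1C (5) the number of members was 2 at an adjusted p of 0.01. It ranged from 2 (without any 1 siCtrl library) to 12 (without siCDO1C replicate 2). Over all genes the calls with siCDO1C were 742, 263 to 279 without 1 siCtrl library and 2068 without siCDO1C replicate 2. Between the siRNAs (0) the number of members was 1 in 1 fit of all 9 libraries and ranged from 0 to 3 (without siCDO1C replicate 2). The totals over all genes were 69, 128 in 1 fit of all 9 libraries and 447 without siCDO1C replicate 2. The number of members called with both siRNAs (2) was 1 at an adjusted p of 0.01 and ranged from 1 to 5 (without siCDO1C replicate 2). The cause of these shifts was not tested. With the replicate block 4 members were called with siCDO1A, 4 with siCDO1C and 0 between the siRNAs, beside 1358, 634 and 121 of all genes. The single calls it changed stand beside the results. Of the further lists, 0 other enzymes (4 without the block) and 3 response genes (9 without it) were called with siCDO1A. When 1 library was left out, calls with siCDO1A ranged from 1 to 3 for other transporters, 0 to 3 for other enzymes, 3 to 9 for response genes and 3 to 6 for sensing genes, with siCDO1C from 1 to 3, 0 to 5, 1 to 13 and 0 to 5, and between the siRNAs from 0 to 2, 0 to 1, 0 to 5 and 0 to 0. Of 1152 values of single members under alternatives, 1071 kept their side of the threshold (those not past it also moved by less than 1 SE), 39 were no longer past it, 26 were newly past it and 16 stayed outside it but moved by more. In 51 the sign changed, all of them values past the threshold in neither setting and at most 0.0643 in size before, and the median with siCDO1A was -0.0025 without siCtrl replicate 1. ASNS, SLC7A5, ALDH1L2 and BCAT1 had at most 39 reads in a library.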
